A study of Mus musculus with 6 samples.

Results

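The disaccharidases and peptidases of the intestinal brush border were followed in cell preparations enriched for leukocytes, taken from serrated polyps of the mouse cecum and from nearby cecum. The genes were sucrase-isomaltase (Sis), trehalase (Treh), lactase (Lct) and maltase-glucoamylase (Mgam) for sugars, and the meprin subunits (Mep1a, Mep1b), dipeptidyl peptidase 4 (Dpp4), aminopeptidase N (Anpep), the NAALADase-like peptidase Naaladl1 and aminopeptidase A (Enpep) for peptides. They were found by gene symbol, read from RefSeq through the Entrez ID of the platform annotation. Of the 10 genes 8 had a named probe, 12 probes in all, among 25697 probes on the array. The set was chosen by the difference between polyp and surrounding samples that earlier results of these arrays had shown for some of its genes. A probe was tested when its detection p-value, the scanner's test of a signal against background, was under 0.05 on at least 3 of the 6 arrays, which 10 probes of 7 genes were. Lct and Mgam had no probe of that name. Enpep was detected on 0 of 6 arrays, and 1 of the 3 Naaladl1 probes, detected on 2 arrays, lay just outside the rule, while the other 2 Naaladl1 probes, detected on 3 arrays, lay just inside it.

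The samples came from 3 HBUS mice, a strain given by name only in the labels used here, with no allele, promoter, age or sex beside it. Each mouse gave a serrated polyp of the cecum (labelled SP) and a piece of the normal cecum distal to it (labelled Surrounding), so that there were 3 polyp and 3 surrounding samples in pairs, and no untreated or wild-type group. In both groups the epithelium was first loosened with EDTA, the rest was digested with dispase II, and cells carrying the leukocyte protein CD45 were enriched with magnetic beads. The purity reached is not given in the sources used here. Each RNA sample was read on 1 array of an Illumina mouse BeadChip.

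Brush border hydrolases sit on the apical surface of absorptive epithelial cells, where they split disaccharides and short peptides into the sugars, amino acids and small peptides that neighbouring transporters take up. In the mouse this machinery is richest in the small intestine, and sucrase-isomaltase is a standard marker of small-intestinal enterocytes. Several of the peptidases also work outside the gut lining: Dpp4 is CD26 on T cells, Anpep is CD13 on myeloid and stromal cells, and Enpep is found on stromal cells and early B cells.

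The enrichment did not remove epithelial RNA. The median scanner intensity per array lay between 97.3 and 109.3, and 12657 to 13796 probes were detected per array, fewest in the polyp sample of mouse 3. Ptprc, which encodes CD45, was lower in the polyp sample of each mouse, and its brighter probe changed by -0.99 ± 0.11 on the log2 scale (SE, n = 3 pairs, limma adjusted p = 0.0052). That probe was dim, between 94.7 and 157.7 on the scanner scale, and not detected in the mouse 3 polyp (detection p-value 0.13). The other probe was detected on 0 polyp arrays, and its change of -0.42 ± 0.13 is a description. Of 16 tested general epithelial markers 4 rose and 0 fell, with a median of 0.25. The mean log2 intensity of that list ran from 10.57 to 10.69 in polyp and from 10.28 to 10.50 in surrounding samples. The count of 4 shifted clearly under 7 alternative settings, while the median stayed similar under all 14. On the scanner scale Krt18, Elf3 and Tjp3 read lower in the mouse 3 polyp (1547.7, 1309.3 and 433.3) than in its surrounding sample (1576.1, 1343 and 457.6). The other marker that rose, Krt19, read higher there (3891.6 against 3389.6). In such mixed samples a larger share of one cell type and more RNA per cell of that type cannot be told apart. Whether the epithelial share had a part in the results below was not tested.

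Below, a level is a background-corrected, quantile-normalised log2 intensity, and a change is polyp minus surrounding on that scale with its limma SE, from 3 mice (n = 3 pairs). Levels of different probes are not compared, since probes differ in brightness. Of the 10 tested probes, 5 were higher in polyp and past the threshold of an adjusted p of 0.05 and 0 were lower, where over all 13409 tested probes 4.62% were called higher, 5.81% lower and 10.4% either. By the brightest probe of each gene, 4 of 7 genes were called higher (Sis, Treh, Naaladl1 and Mep1b), 0 lower, and 3 (Dpp4, Mep1a and Anpep) neither. Over all 9246 genes tested, 11.5% were called, 462 genes higher and 597 lower (6.46%). A difference of the same sign in 3 of 3 mice was seen in 4 of the 7 genes upward and 1 downward, against 27.3% and 22.8% of all probes. The median change was 0.50 over the 7 genes and 0.02 over all genes. Nothing is read from these counts, because the genes were chosen with earlier results of these data known, and because Sis and Naaladl1 met the detection rule through their polyp arrays. Their values are therefore given as a description, without a p-value. The count of 4 fell to 2 without mouse 2, 2 without mouse 3 and 1 in the fit without the mouse term, and was 4 without mouse 1.

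**Figure D1:**
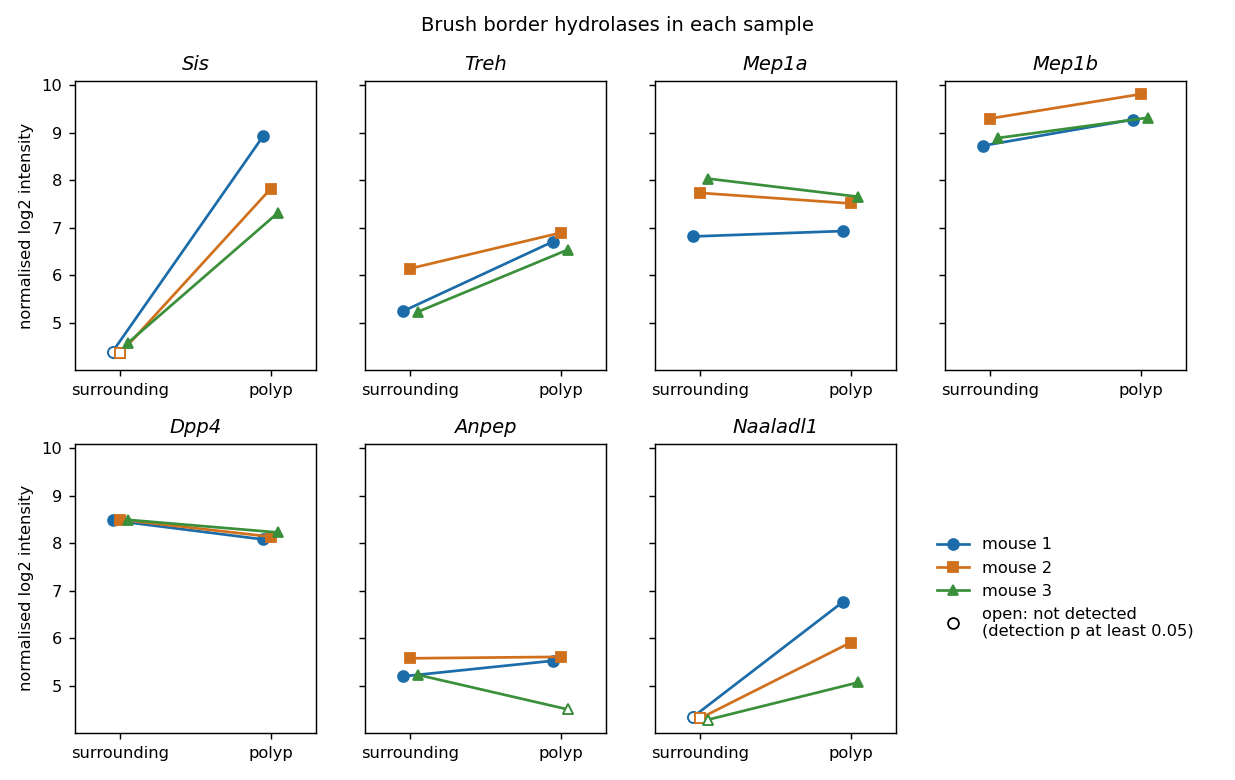
Normalised log2 intensity (y axis) of the brightest probe of each tested gene in the surrounding and polyp sample of each mouse (x axis); a line joins the samples of 1 mouse, and open symbols mark a detection p-value of at least 0.05. Sis runs from 4.36 to 4.57 in surrounding and from 7.32 to 8.93 in polyp samples, while the Dpp4 lines slope slightly down and those of Mep1a and Anpep differ in direction between mice.

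Sis had the largest difference of the set. It encodes the enzyme that splits sucrose and the branched ends of starch. Its scanner intensity was 527.4, 350.6 and 197.7 for polyps 1, 2 and 3 (numbered by mouse), and 99.4, 98.8 and 104.0 for the cecum around them. The surrounding values sat at the background of the array: the probe was detected there in mouse 3 alone (detection p-value 0.04, against 0.16 and 0.18), and on all 3 polyp arrays. The normalised levels were 8.93, 7.82 and 7.32 in polyp and 4.40, 4.36 and 4.57 in surrounding samples, so the groups did not overlap. The differences were 4.54, 3.47 and 2.75 in mice 1, 2 and 3, a change of 3.59 ± 0.31. The size followed the background step, being 1.80 in the authors' processed values, where no background was taken off, and 5.20 with a normexp offset of 1. The median change of the general epithelial markers was 0.36, 0.31 and 0.19 in mice 1, 2 and 3. The Sis difference minus that median was 4.18, 3.16 and 2.56, with a mean of 3.30. This excess followed the background step too, with a mean of 1.55 in the authors' processed values and 4.91 with that offset. The part of the epithelial share in the Sis value was not tested.

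Treh was the sugar hydrolase measured on every array. It encodes trehalase, which splits trehalose, a sugar of fungi and insects, into glucose. Its levels were 6.71, 6.90 and 6.54 in polyp and 5.24, 6.14 and 5.23 in surrounding samples of mice 1, 2 and 3. Every polyp value lay above every surrounding value, and the lowest difference, 0.75, was in mouse 2, whose surrounding sample was the brightest of its group. Treh rose by 1.18 ± 0.15, or 2.26-fold (limma adjusted p = 0.00967, higher in 3 of 3 mice). Groups that did not overlap, with polyp higher, were found for 10.6% of all tested probes. The rise was no longer past the threshold without mouse 3 (1.11, limma adjusted p = 0.0609) and in the fit without the mouse term (limma adjusted p = 0.0784), and it was 0.54 in the authors' processed values. Relative to the epithelial markers of the same mouse it was 1.12, 0.45 and 1.12 larger.

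The start regions of both measured sugar hydrolases are printed here because both were higher in the polyp sample of every mouse, with that of Mep1a, a brush border peptidase that was not past the threshold, beside them. Each is the RefSeq window from 250 bases before to 50 bases after the gene's start in build GRCm38.p6, on the gene's own strand: Sis at chr3:72967814-72968113 (minus), Treh at chr9:44672983-44673282 (plus) and Mep1a at chr17:43502724-43503023 (minus). Capitals mark matches, on either strand, to TTTAT (a CDX motif, for the caudal factors of the intestine) and CAAAGNNCA (an HNF4 motif).
Sis: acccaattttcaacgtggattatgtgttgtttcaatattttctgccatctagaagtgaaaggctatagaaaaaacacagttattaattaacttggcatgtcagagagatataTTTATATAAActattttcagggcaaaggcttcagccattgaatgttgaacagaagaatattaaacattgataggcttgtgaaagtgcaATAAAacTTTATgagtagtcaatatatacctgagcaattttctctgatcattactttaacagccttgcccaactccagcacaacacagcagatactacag
Treh: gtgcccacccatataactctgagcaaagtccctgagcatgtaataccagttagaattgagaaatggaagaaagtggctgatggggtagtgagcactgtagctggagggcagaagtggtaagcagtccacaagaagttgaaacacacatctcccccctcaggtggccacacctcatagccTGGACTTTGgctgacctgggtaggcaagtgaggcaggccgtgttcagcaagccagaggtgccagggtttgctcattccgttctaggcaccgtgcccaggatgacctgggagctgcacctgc
Mep1a: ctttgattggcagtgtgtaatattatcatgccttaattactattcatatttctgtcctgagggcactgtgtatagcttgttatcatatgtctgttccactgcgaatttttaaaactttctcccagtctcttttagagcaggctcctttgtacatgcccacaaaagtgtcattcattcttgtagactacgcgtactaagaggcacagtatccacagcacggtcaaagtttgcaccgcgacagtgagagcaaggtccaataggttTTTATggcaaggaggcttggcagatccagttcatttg
The Sis window held 4 CDX matches. The Treh window held 1 HNF4 match, beginning at base 180, and 0 CDX matches, and that of Mep1a held 1 CDX match. No 2 matches overlapped. Of all 32851 RefSeq windows of this length, 40% held the CDX motif and 6.36% the HNF4 motif. A GATA motif (GATAA), searched but not marked above, was held by 25.4%. It had 0 matches in the Sis window, 0 in that of Treh and 2 in that of Mep1a. In the other windows searched, CDX matches numbered 3 for Mgam, 2 for Lct, 2 for Enpep, 1 for Dpp4 and 0 for Anpep. A match is a string of letters and does not show that a factor binds. On the arrays, Cdx2 changed by -0.07 ± 0.13 (limma adjusted p = 0.771), Cdx1 by 0.20 ± 0.09 (0.213) and Hnf4a by -0.06 ± 0.09 (0.692), none past the threshold. Gata6, of the GATA family, rose by 0.55 ± 0.10 (limma adjusted p = 0.0216), a call lost without mouse 2 and without mouse 3.

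Naaladl1 was the peptidase with the largest difference. It is a relative of glutamate carboxypeptidase II and is known as a peptidase of the ileum. The brightest of its 3 probes had scanner intensities of 179.0, 150.7 and 103.0 in polyp and 97.7, 97.5 and 96.0 in surrounding samples of mice 1, 2 and 3. It was detected on all 3 polyp arrays and on 0 of 3 surrounding arrays, where the signal is only an upper bound. Its polyp levels were 6.77, 5.91 and 5.07, those of the surrounding samples 4.33, 4.31 and 4.28, and the change was 1.60 ± 0.29. Set against the lowest detected signal of the surrounding arrays (4.58 on average), the mean polyp level was at least 2.52-fold higher. This bound is for the mean, and mouse 3 lay nearest to that signal. The second probe differed by 2.29, 1.14 and 0.73 in mice 1, 2 and 3 and was at least 2.01-fold higher in polyp. The third, not tested, differed by 1.10, 0.58 and 0.13. The 3 probes of the gene thus gave 1 order of mice, the order also seen for Sis. In the authors' processed values the change was 0.57, and leaving out 1 mouse gave 1.19 without mouse 1, 1.61 without mouse 2 and 2.01 without mouse 3.

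The meprin subunits gave different values. Mep1b encodes meprin beta, a membrane-bound metalloprotease that also trims mucin on the gut surface, and Mep1a encodes meprin alpha, which can be shed from the cell. The brightest Mep1b probe had levels of 9.28, 9.82 and 9.32 in polyp and 8.73, 9.30 and 8.89 in surrounding samples of mice 1, 2 and 3. Within each mouse the polyp value was higher, by 0.55, 0.51 and 0.43, but the highest surrounding value lay above the lowest polyp value, so that the groups overlapped. This probe rose by 0.50 ± 0.09, or 1.41-fold (limma adjusted p = 0.0237). The other Mep1b probes changed by 0.32 ± 0.11 (limma adjusted p = 0.118) and 0.24 ± 0.12 (limma adjusted p = 0.251) and were not past the threshold. On the scanner scale, before normalisation, the brightest probe read 586.5 in the polyp and 600.6 in the surrounding sample of mouse 3, so the higher polyp value in that mouse appears only after normalisation. The call was lost without mouse 2 (limma adjusted p = 0.157), without mouse 3 (0.0829) and in the fit without the mouse term (0.333). Relative to the epithelial markers the Mep1b difference was 0.20, 0.21 and 0.24.

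Mep1a had levels of 6.93, 7.52 and 7.66 in polyp and 6.82, 7.74 and 8.04 in surrounding samples. It was higher in polyp in mouse 1 and lower in mice 2 and 3, a change of -0.16 ± 0.12 (limma adjusted p = 0.436, 95% interval -0.46 to 0.13). The Mep1b difference exceeded that of Mep1a by 0.44, 0.73 and 0.81 in mice 1, 2 and 3. This comparison was chosen after the values were seen and is a description, with no test.

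Dpp4, which cuts dipeptides from peptides with proline or alanine in the second place, was the only tested gene of the set lower in every polyp sample. Its levels were 8.08, 8.14 and 8.22 in polyp and 8.48, 8.49 and 8.49 in surrounding samples, with no overlap. The change was -0.34 ± 0.09 (95% interval -0.56 to -0.12) and missed the threshold (limma adjusted p = 0.0682). Groups that did not overlap, with polyp lower, were found for 8.64% of all tested probes. Dpp4 was past the threshold with no background subtraction (-0.27, limma adjusted p = 0.0277), with cyclic loess (-0.39, limma adjusted p = 0.0454) and with 3 further alternatives. Markers of T cells, which carry the protein as CD26, moved in the same direction in these samples: 13 of 14 tested fell, with a median of -1.55 and a mean log2 level of 5.94 to 7.02 in polyp against 7.08 to 8.63 in surrounding samples. Cd8a was detected on 0 arrays. Cd8b1, a chain of the CD8 coreceptor, fell by 2.35 on the log2 scale. In the fit without the mouse term 0 of the 14 passed. B cell markers fell as well, 11 of 11 tested, with a median of -1.79, among them Ms4a1, which was detected on surrounding arrays alone. The part of T cells or B cells in the Dpp4 value was not tested.

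Anpep, which removes single residues from the N-terminus of peptides, was dim. Its levels were 5.52, 5.60 and 4.50 in polyp and 5.19, 5.57 and 5.23 in surrounding samples, and the mouse 3 polyp gave no signal above background (detection p-value 0.11). The differences were 0.33, 0.03 and -0.73 in mice 1, 2 and 3, a change of -0.12 ± 0.20 (limma adjusted p = 0.737, 95% interval -0.62 to 0.37). Without mouse 3 the change was 0.18. Among markers of other cells that carry CD13, 2 of 14 tested monocyte and macrophage genes fell (median -0.42), as did 2 of 14 tested fibroblast genes (median -0.04). Each of these counts shifted under 8 alternative settings, and 6.46% of all genes tested were called lower. The mean log2 level ran from 7.73 to 9.24 in polyp and from 8.68 to 9.36 in surrounding samples for the first list, and from 6.42 to 6.72 against 6.54 to 6.89 for the second. The lists of neutrophils and of endothelium and pericytes moved the other way: 7 of 11 tested neutrophil genes rose (median 0.85, mean level 7.82 to 8.21 in polyp against 6.55 to 7.37 in surrounding samples). Of 14 tested endothelial and pericyte genes 9 rose (median 0.76, mean level 6.93 to 7.10 against 6.26 to 6.47). In the fit without the mouse term 4 genes rose in each of these lists, and without mouse 2 the endothelial and pericyte count was 5. Their part in the Anpep value was not tested. Enpep read between 90.2 and 98.0 on the scanner scale on all 6 arrays, with detection p-values of 0.23 to 0.88, so a difference was not detectable.

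**Figure D2:**
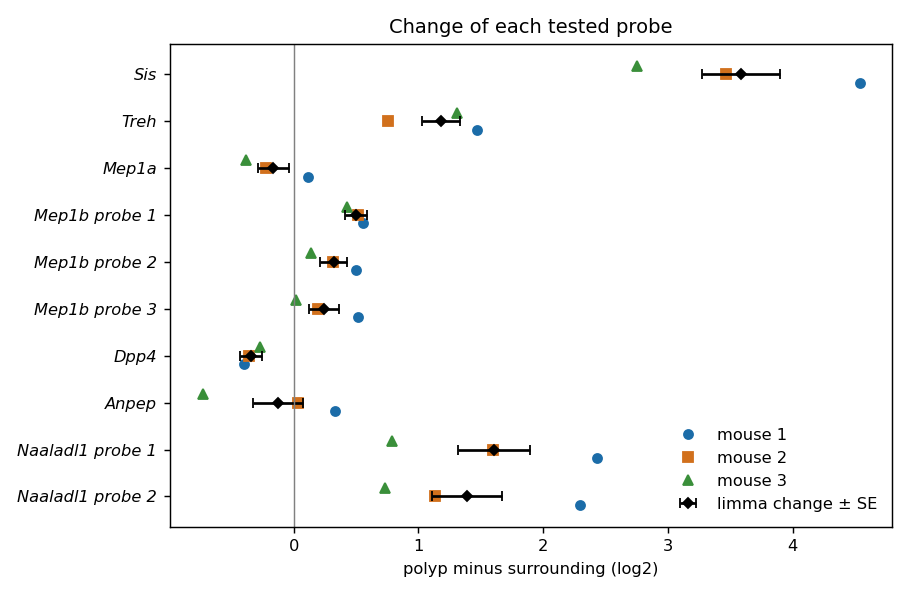
Polyp minus surrounding on the log2 scale (x axis) for each of the 10 tested probes (y axis), with a coloured symbol for each mouse and a black diamond for the limma change with its SE. The Sis values of 2.75 to 4.54 stand apart from the rest, and in both Naaladl1 probes mouse 1 is highest and mouse 3 lowest.

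Related genes were read next as a description: other brush border genes, soluble relatives of the peptidases, uptake transporters and transcription factors of the intestine. The lists held 99 genes, of which 56 were tested, 11 were called higher and 1 lower. Over all 9246 genes tested, 462 were called higher and 597 lower, 11.5% in either direction. The lists were chosen with earlier results of these data known, so nothing is read from the count. The 11 include Slc7a9 and Onecut2, which met the detection rule through their polyp arrays alone and are given below without a p-value. The count of 11 was 9 without mouse 1, 4 without mouse 2, 3 without mouse 3 and 2 in the fit without the mouse term, and it was 16 in the authors' processed values. Among 5 tested genes on the list of other brush border hydrolases, 2 rose and 3 were not past the threshold (median 0.38). Xpnpep2, a membrane aminopeptidase that acts before proline, rose by 1.13 ± 0.15 (limma adjusted p = 0.00961), with levels of 6.79, 6.42 and 6.94 in polyp and 5.26, 5.54 and 5.97 in surrounding samples. Amn is no hydrolase itself but the membrane anchor of cubilin, the receptor for intrinsic factor and vitamin B12. It rose by 1.21 ± 0.11 (limma adjusted p = 0.00357), and its polyp levels of 8.54, 8.10 and 8.91 lay above all surrounding levels, of which the highest was 7.81. Both kept their call without any 1 mouse and lost it in the fit without the mouse term. Dpep1, a membrane dipeptidase, changed by -0.18 ± 0.22 (limma adjusted p = 0.65). Akp3, Ace, Mme, Tmprss15 and Folh1 were among 9 genes of that list that were detected on 0 arrays.

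Soluble and other relatives of the aminopeptidases and dipeptidyl peptidases differed by small amounts. Of 13 tested, 4 rose (median 0.18): the prolyl endopeptidase Prep by 0.43 ± 0.09, the prolidase Pepd by 0.43 ± 0.10, aminopeptidase B (Rnpep) by 0.41 ± 0.09 and Xpnpep1, the cytosolic relative of Xpnpep2, by 0.39 ± 0.09, with limma adjusted p-values from 0.0339 to 0.0474. Of these relatives 2 rose without mouse 1, 0 without mouse 2, 0 without mouse 3 and 0 with arrays scaled to the same median. On the scanner scale, before normalisation, all 4 read lower in the polyp than in the surrounding sample of mouse 3. The values there were 295.6 against 323.9 for Prep, 162.9 against 180.3 for Pepd, 549.1 against 608.1 for Rnpep and 1603.9 against 1636.3 for Xpnpep1. The tested members of the Dpp4 family were not past the threshold, with changes of 0.41 for Fap, 0.34 for Dpp9, 0.05 for Dpp8 and 0.02 for Dpp6.

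Over 8 tested transporters that take up the products of these enzymes, the median change was 0.27. The only call was Slc7a9, which met the detection rule through its polyp arrays alone, so that call is not read. Slc7a9, the light chain of the carrier for cystine and basic amino acids, had levels of 7.06, 6.68 and 6.03 in polyp and 4.28, 4.29 and 4.28 in surrounding samples of mice 1, 2 and 3. It was detected on 0 of 3 surrounding arrays and was at least 4.04-fold higher in polyp. Slc5a1, the sodium-glucose carrier, changed by 0.18 ± 0.10 (limma adjusted p = 0.293). The transporters of the products of sucrose, Slc2a5 for fructose and Slc2a2 for glucose, were detected on 0 arrays.

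Structural proteins of the brush border showed few calls. Of 16 tested, 1 rose and 15 were not past the threshold (median 0.08). Myo1a, the motor that ties the actin core of a microvillus to its membrane, rose by 0.59 ± 0.10 (limma adjusted p = 0.02), a call lost without mouse 2 and without mouse 3. Villin, the actin bundler of the microvillus encoded by Vil1, changed by 0.11 ± 0.09 (limma adjusted p = 0.451). Of 14 tested transcription factors of the intestine, 3 were called higher and 1 lower (median 0.24). The 3 include Onecut2, which met the detection rule through its polyp arrays alone, so its call is not read. Onecut2, a factor of the small intestine, was detected on 0 surrounding arrays and was at least 1.35-fold higher in polyp. Gata6 rose by 0.55 ± 0.10 and the epithelial factor Elf3 by 0.50 ± 0.10, while Klf4, a factor of differentiated surface cells of the colon, fell by 0.65 on the log2 scale (limma adjusted p = 0.0172). The calls of Gata6, Elf3 and Klf4 were lost without mouse 2 and without mouse 3. On the scanner scale, Myo1a, Gata6 and Elf3 read lower in the polyp of mouse 3 (162.5, 535.1 and 1309.3) than in its surrounding sample (171.1, 552.5 and 1343).

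Regional markers of the gut lining were set beside the hydrolases. Of 6 tested small-intestinal enterocyte genes 2 rose (median 0.44), the ileal bile acid carrier Fabp6 by 2.65 ± 0.37 (limma adjusted p = 0.0122) and Dgat2, an enzyme of triglyceride synthesis, by 0.64 ± 0.11 (limma adjusted p = 0.0223). The Fabp6 call was lost in the fit without the mouse term, and that of Dgat2 there, without mouse 2 and without mouse 3. Apoa1, an apolipoprotein, was detected on 3 polyp and 0 surrounding arrays, so its change of 2.03 ± 0.67 is given as a description. Its polyp levels were 8.57, 5.59 and 4.79 in mice 1, 2 and 3, with differences of 4.29, 1.35 and 0.45. The mean polyp level was at least 3.33-fold above the lowest detected surrounding signal (4.58 on average). That mean rests mostly on mouse 1, and the level of mouse 3 lay close to the bound. Fabp1, Fabp2 and Slc10a2, which define the same cells, were among 6 genes of the list detected on 0 arrays. The list's mean log2 level ran from 7.44 to 8.55 in polyp and from 6.82 to 7.14 in surrounding samples. Of 11 tested genes of the large-bowel surface, 3 fell and 1 rose (median -0.40). The carbonic anhydrase Car4 fell by 2.21, the water channel Aqp8 by 1.34 and Cyp2c55 by 1.11 on the log2 scale, with limma adjusted p-values of 0.00723, 0.00387 and 0.00295. Ms4a8a rose by 0.53 ± 0.12 (limma adjusted p = 0.0409), a call lost without mouse 2, without mouse 3 and in the fit without the mouse term. That list's mean level was 9.29 to 9.41 in polyp and 9.68 to 9.89 in surrounding samples. The part of either cell type in the values of Sis, Treh and Naaladl1 was not tested.

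**Figure D3:**
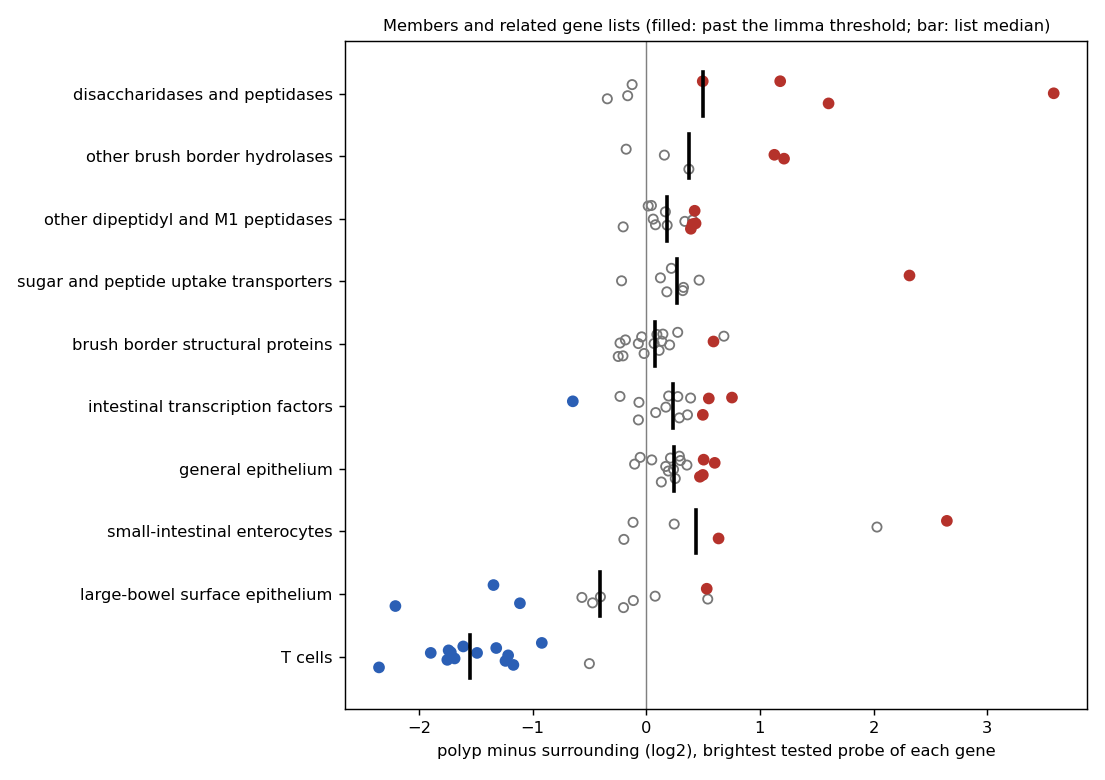
Change of each tested gene (x axis, polyp minus surrounding on the log2 scale, brightest probe) for the disaccharidases and peptidases and for 9 related lists (y axis); filled points are past the limma threshold, red higher and blue lower, and a black bar marks the median of a list. Sis, Slc7a9 and Fabp6 lie furthest to the right, the structural proteins centre near 0, and the T cell genes lie to the left. The fill of Sis, Naaladl1, Slc7a9 and Onecut2 is not read as a test.

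The genes whose levels over the 6 arrays were most like those of Sis were Slc7a9 (Pearson's r = 0.995), the keratin Krt7 (0.992), the chemokine Ccl25 of the small intestine and thymus (0.990), Cdc42ep4 (0.990) and Bok (0.989), and 66 genes had an r above 0.95. The arrays form 2 groups of 3, so r over them mainly reflects the difference between groups and is a description without a test. For Dpp4, the gene with the largest fall of the set, the most alike were Asb13 (r = 0.995), Tapt1 (0.992), Slc16a9 (0.988), Lsm14a (0.988) and Wdhd1 (0.986), with changes of -0.24 to -0.65.

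**Figure D4:**
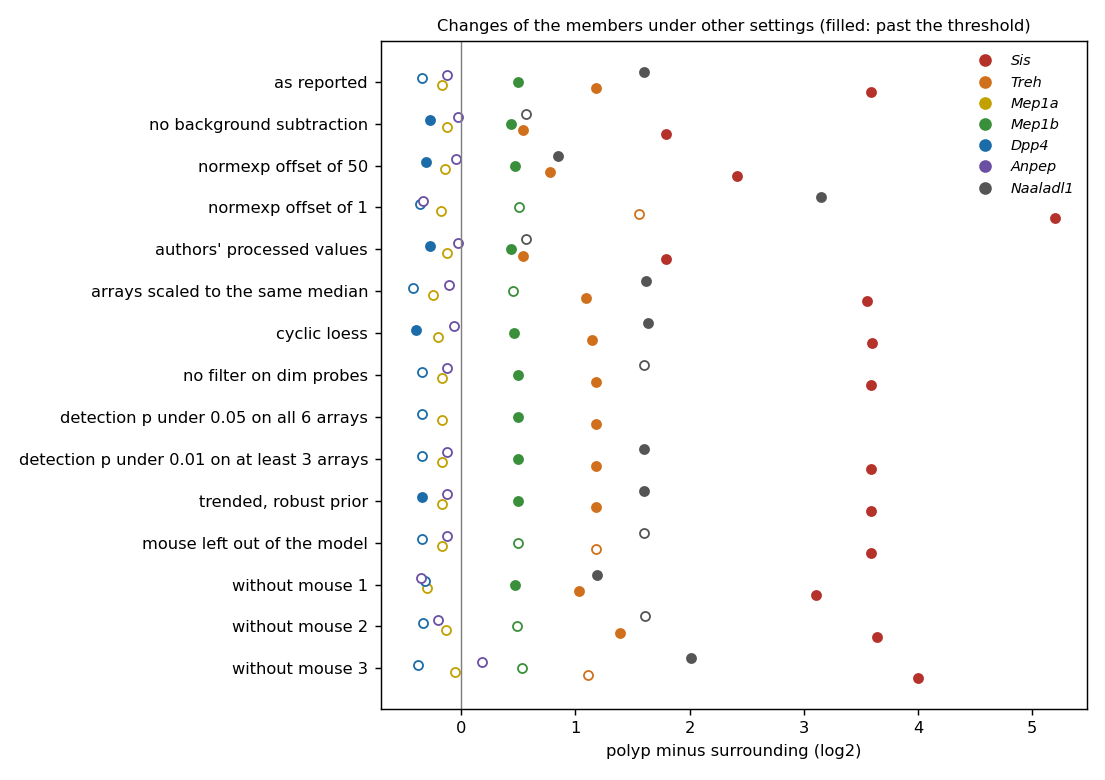
Change of the 7 tested genes (x axis, polyp minus surrounding on the log2 scale) as reported and under each alternative setting (y axis); filled points have an adjusted p under 0.05. Sis stays to the right of all others under every setting that tests it, from 1.80 to 5.20, and Anpep crosses 0 without mouse 3. The fill of Sis and Naaladl1 is not read as a test.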

How the data were processed

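RNA of 6 samples, a polyp and a surrounding sample from each of 3 mice, was measured on Illumina BeadChips. The deposited scanner table gives a non-normalized intensity per probe and array, exported with GenomeStudio per the submitters' processing notes, and a detection p-value for each deposited intensity. The authors' processed values, for which those notes name limma 3.14.4, were compared with a quantile normalisation of the deposited intensities without background subtraction. They differed from it by at most 0.005 intensity units, before the log2 step, and served as an alternative. Genes were named by the RefSeq symbol of the Entrez ID in the platform annotation, or by the platform symbol where no ID matched.

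Intensities were corrected by normexp with the detection p-values (neqc, offset 16), quantile-normalised and put on a log2 scale in limma 3.58.1 under R 4.3.3. A probe entered the test when at least 3 of 6 arrays gave it a detection p-value below 0.05, and was fitted with lmFit and eBayes (2 residual and 4.04 prior degrees of freedom) with mouse as a block, and p-values were adjusted by Benjamini-Hochberg over 13409 probes. At an unadjusted p under 0.05 there were 3726. The mouse numbers come from the labels, and the deviations of same-numbered samples from their group means correlated at 0.571, 0.564 and 0.614. A gene's brightest tested probe stood for it. Where a group was undetected on all its arrays, the mean level of the other group was set against the lowest detected signal of those arrays. This "at least" fold is for the mean and need not hold in each mouse. The number of arrays limits the precision. The members and all lists were chosen with earlier results of these data known. Every member is named, with up to 4 called genes of a list by size, genes that define a list, and the 5 genes most correlated with Sis and with Dpp4. The fit was tested on simulated data. Promoter windows came from RefSeq (GRCm38.p6), with windows of 8 of the 10 genes searched. Alternatives changed the background correction, normalisation, probe filter, variance prior, mouse block and mice used.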

Additional observations from a re-analysis of the deposited data

How the results depend on the processing

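No called change turned its direction under any alternative run, and Anpep, never past the threshold, changed sign without mouse 3. The limits are 3 pairs of arrays and surrounding signals of Sis and Naaladl1 at background, so that their size followed the background step. Counts of the set include these genes, which met the detection rule through their polyp arrays, so nothing is read from the counts. With no background subtraction, and in the authors' processed values, 1 of the set was called lower (Dpp4, -0.27) and Naaladl1 changed by 0.57. The excess over the epithelial markers was then 1.56 and 1.55 for Sis, 0.30 for Treh and 0.33 for Naaladl1. With a normexp offset of 50, 1 was lower (Dpp4, -0.31), and that excess was 2.15 for Sis and 0.58 for Naaladl1. With an offset of 1, 238 probes were higher and 388 lower, and 2 of the set were higher (Treh at 1.56 and Mep1b at 0.51 missed the threshold). With that offset 4 of the related genes were higher and 0 lower, and the excess was 4.91 for Sis and 2.86 for Naaladl1. With arrays scaled to the same median, where the fit gave every gene of the set the same SE of 0.18, 407 probes were higher and 1000 lower, 5 related genes were higher, Mep1b missed the threshold (0.46) and its excess was 0.18. With cyclic loess 7 related genes were higher and 1 of the set lower (Dpp4, -0.39), and with a trended prior 1 was lower (Dpp4, -0.34). With no filter on dim probes Treh (1.18) and Mep1b (0.50) stayed past the threshold. Detection on all 6 arrays left 2 of the set higher and did not test Sis, Naaladl1 and Anpep. The stricter detection limit changed none of these calls.

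Without the replicate block, that is with the pairing by mouse dropped, 87 probes were higher and 96 lower. In that fit 2 related genes were higher and 0 lower, and Mep1b (0.50) and Treh (1.18) missed the threshold. Dropping the pairing left the changes of Sis (3.59) and Naaladl1 (1.60) as they were. Leaving out each mouse in turn gave 153 to 825 probes higher and 259 to 1102 lower, 2 to 4 of the set higher, and 3 to 9 related genes higher and 0 to 2 lower. The change was 3.11 to 4.00 for Sis, 1.03 to 1.39 for Treh, 1.19 to 2.01 for Naaladl1, 0.47 to 0.53 for Mep1b and -0.38 to -0.31 for Dpp4. The causes were not tested.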
